A study of Mus musculus with 6 samples.

Results

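The genes that write, copy, erase and protect DNA methylation were examined in mouse oocytes with a knock-out of Rtcb. The set holds 10 genes of the 23235 in the deposited table, taken by exact symbol: the methyltransferase genes Dnmt1, Dnmt3a and Dnmt3b, the cofactor gene Dnmt3l, the Dnmt1 recruiter Uhrf1, the dioxygenase genes Tet1, Tet2 and Tet3, and the protection factors Dppa3 and Zfp57. All 10 symbols were found. Transcript levels came from fully-grown germinal vesicle (GV) oocytes, which are arrested in the first meiotic prophase before ovulation, of C57BL/6 mice collected 44 to 48 h after PMSG, a gonadotropin that stimulates follicle growth. There were 3 libraries with a knock-out of Rtcb (KO) and 3 wild-type (WT) libraries, each of 10 oocytes, so the design has 1 contrast, and both groups had the same strain, stage and hormone treatment. RTCB is an RNA ligase; it seals the exons of cut tRNAs and of cut Xbp1 mRNA. Which exons were deleted, and by which driver, the sources do not tell, and the titles carry a mark 6W whose meaning the labels do not state. Separate animals per library are not stated, so the p-values here reflect spread among libraries alone, some of which may be technical.

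DNMT3A with its inactive partner DNMT3L places new methyl groups on cytosines of the growing oocyte's genome, including the maternal imprints, and DNMT3B is a related enzyme used mainly after implantation. DNMT1, brought to hemimethylated DNA by UHRF1, copies methylation after replication, and the oocyte stores its own form of DNMT1 for the embryo. TET enzymes oxidise 5-methylcytosine, TET3 being the one the oocyte supplies to the zygote. DPPA3 (STELLA) restrains UHRF1 in the oocyte and shields the maternal genome from TET3 in the zygote, and ZFP57 binds methylated imprint control regions and recruits TRIM28.

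Values are FPKM normalized by the authors to ERCC spike-ins, given as deposited unless stated. D10Wsu52e, the older symbol of Rtcb, was at 3.82, 2.62 and 2.49 FPKM in KO and at 136, 133 and 113 FPKM in WT, a difference in the direction of the labels. All KO columns carry 1 common factor and all WT columns another, and the KO factor divided by the WT factor is 0.667 (−0.58 on the log2 scale). The median log2 fold change of the 12029 tested genes was −0.47 as deposited and 0.043 with these factors removed, so log2 fold changes of the 10 genes and of the named pathway genes are given under both scalings. Summed FPKM ran from 943926 to 999507 in KO and from 1267730 to 1347014 in WT; read depth is unknown, because FPKM do not keep it. Libraries are bulk, each of 10 oocytes, so for any other cell type fewer cells and less RNA per cell cannot be told apart. Each of 12 oocyte markers was tested, with summed levels of 15703 to 17006 FPKM in KO and 23427 to 27312 FPKM in WT. Of 15 granulosa and cumulus markers, 9 were under 1 FPKM in every library, with sums of 45.7 to 58.7 FPKM in KO and 58.2 to 64.3 FPKM in WT, led by Cyp19a1 (17.5 to 22.2 FPKM in KO, 35.6 to 39.8 FPKM in WT). Nr5a2 was at 12.3 to 14.5 FPKM in KO and 7.57 to 11.3 FPKM in WT, and was called higher in KO (limma adjusted p = 0.0317). That call was lost in 4 of the 6 fits with 1 library left out (limma adjusted p up to 0.0999, without KO 1). Inha was at 6.08 to 17.8 FPKM in KO and 3.50 to 8.36 FPKM in WT. Foxl2, Fshr and Amh were among the 9 under 1 FPKM. Of 8 blood and immune markers 3 were listed at 0 throughout (Hba-a1, Hbb-b1 and Cd79a), and the list summed to 0.879 to 8.85 FPKM in KO and 2.88 to 4.88 FPKM in WT. These levels and sums are as deposited, so their order between KO and WT depends on the scaling. With the factors removed, log2 fold changes of the 5 tested granulosa markers were −0.32 (Cyp19a1), 0.96 (Nr5a2), 1.03 (Inha), 0.43 (Hsd17b1) and 0.44 (Kitl). Of these, Nr5a2 and Kitl were called higher. Among oocyte markers Zp1, Nlrp5 and Kit were then called lower, and Ddx4, Figla, Mos, Oosp1 and Dazl higher. The part of these marker levels in the results was not tested.

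In KO oocytes Dnmt1, Tet3, Uhrf1, Dnmt3a and Dnmt3b fell and Tet2 rose under each scaling tried, while falls of Dnmt3l, Zfp57 and Dppa3 were called as deposited but under none of the 3 rescalings, and the sign for Dppa3 and Tet1 flipped with the genotype factors removed. By limma at an adjusted p under 0.05, 8 of the 10 genes fell and 1 rose, where 54.0% of all tested genes fell and 9.29% rose (63.3% called in all); Tet1 was not called. With the genotype factors removed 5 fell (Dnmt1, Tet3, Uhrf1, Dnmt3a and Dnmt3b) and 1 rose (Tet2), against 18.0% and 25.7% of all tested genes (43.7% in all). With library totals made equal the counts were again 5 and 1, against 25.8% and 19.0% (44.8% in all). As deposited, 5 of the 10 genes fell by at least 1 on the log2 scale and Dnmt1 by at least 2, against 14.9% and 0.333% of all tested genes. With the factors removed Dnmt1 and Tet3 fell by at least 1, against 1.22%, and 0 of the 10 by at least 2, against 0.0665%. The median log2 fold change of the 10 genes was −0.96, or −0.49 relative to that of all tested genes. KO and WT values did not overlap for any of the 10 as deposited, 1 being higher and 9 lower in KO; of all tested genes 10.2% were higher without overlap and 57.5% lower (67.8% in all). All 10 passed the filter of a mean of at least 1 FPKM, but Tet2 (mean 1.00 FPKM over the 6 libraries) passed only through its KO values, so that its difference had to be there. Log2 fold changes were computed after adding 1 FPKM, and so understate the change of low genes such as Tet1 and Tet2. The added 1 FPKM weighs more once the factors are removed. For low genes the log2 fold changes under the 2 scalings therefore differ by less than the factors alone would give. Tet2, for example, had means of 1.16 FPKM in KO and 0.226 FPKM in WT with the factors removed.

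**Figure D1:**
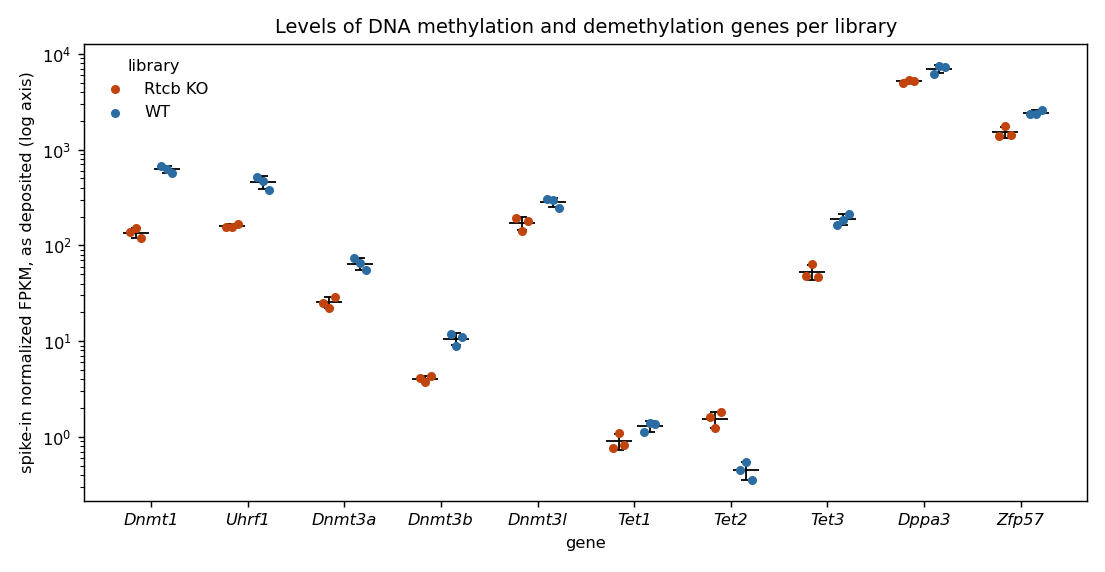
Level of each of the 10 genes per library in spike-in normalized FPKM as deposited, on a log axis; points are libraries, horizontal lines the mean and bars the SD (n = 3). KO points lie below WT points for each gene except Tet2, which lies above; with the genotype factors removed the KO means of Dppa3 and Tet1 are the higher ones. Dppa3 is the most abundant gene in both genotypes.

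Dnmt1 encodes the enzyme that copies CpG methylation to new strands. Dnmt1 was at 138, 151 and 119.7 FPKM in the 3 KO libraries, against 666, 625 and 574 FPKM in the 3 WT libraries. Every KO library lay below every WT library, and the means were 136 ± 15.5 FPKM in KO and 622 ± 46.1 FPKM in WT (SD, n = 3 each). Dnmt1 fell 4.56-fold by the means (log2 fold change −2.19, SE 0.109, limma adjusted p = 0.000162), −1.71 relative to the median of all tested genes, and 51 of the 12029 tested genes had a lower log2 fold change. Dnmt1 stood at the 87.3 to 89.6 percentile of tested genes in KO libraries and at the 96.4 to 97.2 percentile in WT libraries. With the factors removed it also fell (log2 fold change −1.60, limma adjusted p = 0.000625). Without any 1 library its log2 fold change stayed between −2.26 and −2.1.

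Mouse oocytes are known to start Dnmt1 transcription at an exon of their own, upstream of the somatic first exon, and FPKM per gene do not separate these forms. The most upstream and the most CpG-rich of the 3 RefSeq windows around a Dnmt1 start (250 bases before to 50 after it, build GRCm38.p6, sequences from RefSeq) are shown because they differ in the dinucleotide that DNMT1 methylates, with each CG in capitals. CG reads alike on both strands, and 94.6% of all 32851 windows hold at least 1, with a median of 7.
Dnmt1, most upstream start (chr9:20959839-20960138, minus strand): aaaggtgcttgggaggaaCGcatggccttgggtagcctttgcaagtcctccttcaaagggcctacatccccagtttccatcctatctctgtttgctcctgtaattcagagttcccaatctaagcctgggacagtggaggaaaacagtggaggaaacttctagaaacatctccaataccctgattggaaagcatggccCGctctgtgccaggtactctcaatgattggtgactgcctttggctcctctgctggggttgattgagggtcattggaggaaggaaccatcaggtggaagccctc
Dnmt1, most CpG-rich start (chr9:20952574-20952873, minus strand): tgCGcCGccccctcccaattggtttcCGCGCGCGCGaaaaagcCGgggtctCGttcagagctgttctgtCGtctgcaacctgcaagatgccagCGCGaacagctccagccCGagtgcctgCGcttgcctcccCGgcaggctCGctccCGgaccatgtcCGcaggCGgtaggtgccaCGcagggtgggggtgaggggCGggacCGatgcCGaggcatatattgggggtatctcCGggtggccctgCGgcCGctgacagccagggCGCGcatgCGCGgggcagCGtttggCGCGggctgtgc
The upstream window held 2 CG and the CpG-rich window 33, more than 14.1% and 91.4% of all windows. Which start the reads came from was not analysed here.

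Uhrf1 encodes the reader of hemimethylated CpG that brings DNMT1 to replicated DNA. Uhrf1 was at 157, 157 and 168 FPKM in the 3 KO libraries, against 520.1, 466 and 379 FPKM in the 3 WT libraries. The means were 161 ± 6.62 FPKM in KO and 455 ± 71.2 FPKM in WT (SD, n = 3 each), and the wider WT values did not reach those of KO. Uhrf1 fell 2.83-fold (log2 fold change −1.48, SE 0.122, limma adjusted p = 0.000162), and it fell too with the factors removed (log2 fold change −0.90, limma adjusted p = 0.00163). Of all tested genes, 281 had a lower log2 fold change.

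Both de novo methyltransferase genes fell. Dnmt3a was at 24.8, 22.3 and 29.1 FPKM in the 3 KO libraries, against 73.1, 65.5 and 54.9 FPKM in the 3 WT libraries. Dnmt3a encodes the enzyme that sets most oocyte methylation, and its highest KO value stayed below the lowest WT value. The means were 25.4 ± 3.43 FPKM in KO and 64.5 ± 9.14 FPKM in WT (SD, n = 3 each). It fell 2.54-fold (log2 fold change −1.31, SE 0.144, limma adjusted p = 0.000239), and with the factors removed it also fell (log2 fold change −0.73, limma adjusted p = 0.00556). Dnmt3b was at 4.11, 3.78 and 4.33 FPKM in the 3 KO libraries, against 12, 8.99 and 11.0 FPKM in the 3 WT libraries. Dnmt3b, the paralog that acts mainly in the embryo, had separate groups as well, with means of 4.07 ± 0.278 FPKM in KO and 10.6 ± 1.52 FPKM in WT (SD, n = 3 each). It fell 2.62-fold (log2 fold change −1.19, SE 0.150, limma adjusted p = 0.000377), and again with the factors removed (log2 fold change −0.64, limma adjusted p = 0.00876).

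Dnmt3l encodes the catalytically inactive cofactor of DNMT3A that is required for maternal imprints. Dnmt3l was at 193, 139.9 and 181 FPKM in the 3 KO libraries, against 308, 295 and 247 FPKM in the 3 WT libraries. The groups were separate as deposited, with means of 171 ± 27.9 FPKM in KO and 284 ± 31.9 FPKM in WT (SD, n = 3 each). Dnmt3l fell 1.66-fold as deposited (log2 fold change −0.73, SE 0.142, limma adjusted p = 0.00266), but with the factors removed the groups overlapped and the call was lost (log2 fold change −0.15, limma adjusted p = 0.418). Mouse annotation GENCODE vM21 lists processed pseudogenes of Dnmt3a, Dnmt3l and Dppa3 and antisense genes of Dnmt3a and Dnmt3b, so reads of these 4 genes could be shared, which was not tested.

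Among the TET dioxygenase genes, Tet3 was by far the most abundant. Tet3 was at 48.0, 63.5 and 47.0 FPKM in the 3 KO libraries, against 163, 184 and 212 FPKM in the 3 WT libraries. Every KO value lay below every WT value, and the means were 52.8 ± 9.26 FPKM in KO and 187 ± 24.5 FPKM in WT (SD, n = 3 each). Tet3 fell 3.53-fold (log2 fold change −1.81, SE 0.147, limma adjusted p = 0.000162), and with the factors removed it fell as well (log2 fold change −1.22, limma adjusted p = 0.00116). Of the tested genes, 94 had a lower log2 fold change. The single RefSeq window at a Tet3 start is shown beside those of Dnmt1 because Tet3 fell next most; it held 22 CG, more than 76.9% of all windows. The oocyte is known to use a further Tet3 start; whether this window holds it was not analysed here.
Tet3 (chr6:83441629-83441928, minus strand, GRCm38.p6): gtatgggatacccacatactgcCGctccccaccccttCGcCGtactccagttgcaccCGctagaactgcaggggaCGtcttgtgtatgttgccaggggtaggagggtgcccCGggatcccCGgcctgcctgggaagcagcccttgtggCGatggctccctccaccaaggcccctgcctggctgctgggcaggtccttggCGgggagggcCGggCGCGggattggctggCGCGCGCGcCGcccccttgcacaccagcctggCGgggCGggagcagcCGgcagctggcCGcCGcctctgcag
The Tet3 window lies between both Dnmt1 windows in its number of CG.

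Tet2, an enzyme best known from blood cells, went the other way at a low level. Tet2 was at 1.61, 1.23 and 1.81 FPKM in the 3 KO libraries, against 0.449, 0.550 and 0.357 FPKM in the 3 WT libraries. Each KO value was above each WT value, with means of 1.55 ± 0.295 FPKM in KO and 0.452 ± 0.0964 FPKM in WT (SD, n = 3 each). Tet2 rose 3.43-fold by the means (log2 fold change 0.81, SE 0.166, limma adjusted p = 0.00348), and it rose under the factor-removed scaling too (log2 fold change 0.81, limma adjusted p = 0.00257). Because its filter was passed only through KO, this call adds no support beyond the values. Tet1 was at 0.773, 1.10 and 0.827 FPKM in the 3 KO libraries, against 1.12, 1.41 and 1.38 FPKM in the 3 WT libraries. Tet1, the TET enzyme of stem cells and primordial germ cells, had means of 0.901 ± 0.177 FPKM in KO and 1.30 ± 0.162 FPKM in WT (SD, n = 3 each), and passed the filter through its WT values. Its difference missed the threshold (log2 fold change −0.28, SE 0.160, limma adjusted p = 0.159), and with the factors removed it was 0.019 on the log2 scale, on the other side of 0.

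The protection factors were the most abundant of the 10 genes and were close to the general shift. Dppa3 was at 4954, 5336 and 5194 FPKM in the 3 KO libraries, against 6121, 7406 and 7346 FPKM in the 3 WT libraries. Dppa3 encodes STELLA, and its groups were separate, with means of 5161 ± 193 FPKM in KO and 6958 ± 726 FPKM in WT (SD, n = 3 each). It fell 1.35-fold as deposited (log2 fold change −0.43, SE 0.106, limma adjusted p = 0.00881), but its sign turned with the factors removed, where it was not called (log2 fold change 0.16, limma adjusted p = 0.265). The groups were separate under that scaling too, with KO above WT (means 3871 FPKM in KO and 3479 FPKM in WT). Dppa3 lay 0.045 above the median of all tested genes as deposited and 0.12 above it with the factors removed. The call as deposited was also lost without WT 2 (limma adjusted p = 0.0522). Zfp57 was at 1381, 1767 and 1429 FPKM in the 3 KO libraries, against 2339.7, 2340.02 and 2585 FPKM in the 3 WT libraries. Zfp57 encodes the zinc finger protein that keeps imprints methylated, and the highest KO library, KO 2, stayed below the WT values. The means were 1526 ± 210.1 FPKM in KO and 2422 ± 142 FPKM in WT (SD, n = 3 each). It fell 1.59-fold as deposited (log2 fold change −0.67, SE 0.114, limma adjusted p = 0.00139), a call lost with the factors removed, where the groups overlapped (log2 fold change −0.089, limma adjusted p = 0.556).

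**Figure D2:**
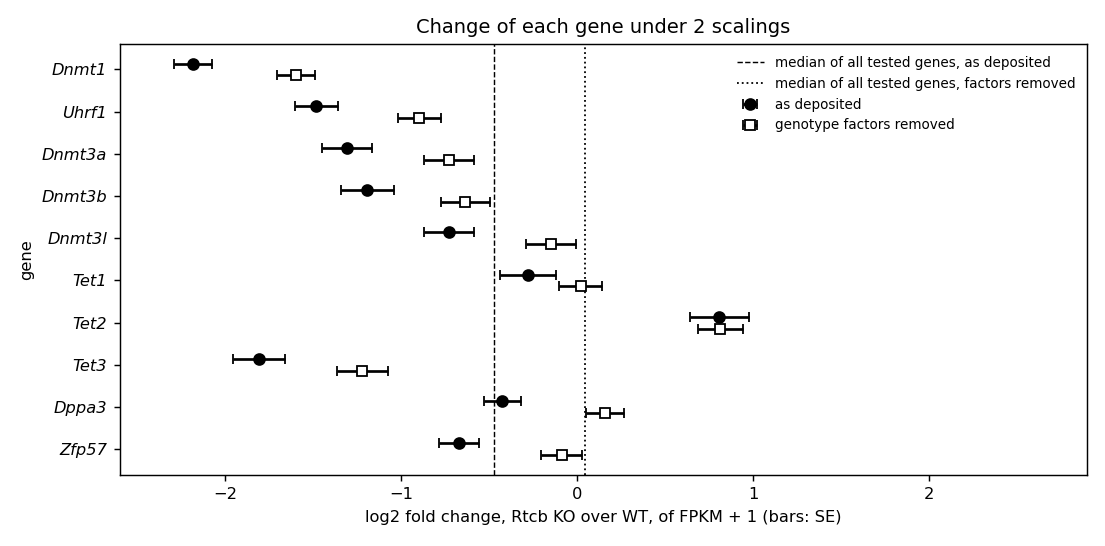
Log2 fold change of each gene, KO over WT, on the log2(FPKM + 1) scale with its SE, as deposited (filled) and with the genotype factors removed (open); vertical lines are the medians of all tested genes. Dnmt1, Tet3, Uhrf1, Dnmt3a and Dnmt3b lie left of the median under both scalings, Tet2 lies right of it under both, and Dnmt3l, Tet1, Dppa3 and Zfp57 lie nearer to it, Dppa3 and Tet1 changing sign between the scalings.

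Ordered by mean level per length, KO ran Dppa3, Zfp57, Dnmt3l, Uhrf1, Dnmt1, Tet3, Dnmt3a, Dnmt3b, Tet2 and Tet1. The WT order was Dppa3, Zfp57, Dnmt1, Uhrf1, Dnmt3l, Tet3, Dnmt3a, Dnmt3b, Tet1 and Tet2. By the means, Dnmt1, Uhrf1 and Dnmt3l thus stood in the reverse order in KO. Library KO 2 did not show this reversal, with Uhrf1 at 157, Dnmt1 at 151 and Dnmt3l at 139.9 FPKM. In KO the values of Dnmt3l and Uhrf1 overlapped, and no other neighbours in either order did. The KO values of Dnmt3l and Dnmt1, which are not neighbours, overlapped too. Dppa3 made up 71.8%, 69.8% and 72.4% of the summed FPKM of the 10 genes in KO libraries, against 60.0%, 65.0% and 64.4% in WT libraries. Dnmt1 made up 2.0%, 1.97% and 1.67% in KO, against 6.53%, 5.48% and 5.03% in WT. Of the pool of these 10 transcripts, the KO oocytes thus held a larger share of Dppa3 and a smaller share of Dnmt1 in every library.

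Ratios between genes within a library carry no common factor and so do not depend on the scaling. Of 7 ratios fixed by role, 6 had separate groups (exact permutation test over libraries, two-sided, p = 0.1 for each, the smallest that 3 against 3 allows, and 0.117 adjusted over the 7), so none can pass a threshold of 0.05 in this design. Of single tested genes 67.8% had separate groups as deposited, and the share among other gene pairs was not computed. The count is therefore not a result about these genes. Dppa3 to Uhrf1, the restrainer against its target, was 31.5, 34.1 and 30.8 in KO and 11.8, 15.9 and 19.4 in WT (log2 difference 1.06, SE 0.214). The ratio was 2.09-fold higher in KO, and each KO library exceeded each WT library. Dnmt1 to Uhrf1, the enzyme against its recruiter, was 0.880, 0.962 and 0.711 in KO and 1.28, 1.34 and 1.52 in WT (log2 difference −0.70, SE 0.148). Dnmt1 was the less abundant of the pair in every KO library and the more abundant in every WT library.

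Dnmt1 to Dnmt3a, maintenance against de novo enzyme, was 5.58, 6.74 and 4.11 in KO and 9.12, 9.53 and 10.5 in WT (log2 difference −0.85, SE 0.216). Dnmt3a to Dnmt3l was 0.128, 0.160 and 0.161 in KO and 0.237, 0.222 and 0.222 in WT (log2 difference −0.61, SE 0.113). Both ratios were lower in every KO library. Tet3 to Dnmt1, the eraser against the copier, was 0.347, 0.422 and 0.392 in KO and 0.245, 0.295 and 0.370 in WT, and these groups overlapped (log2 difference 0.37, SE 0.190; exact permutation test, two-sided, p = 0.2, adjusted over the 7 ratios 0.2). Tet3 to Tet2 was 29.8, 51.6 and 25.9 in KO and 364, 335 and 594 in WT (log2 difference −3.61, SE 0.398), with Tet2 under 2 FPKM in all 6 libraries. Tet2 passed the filter only through its KO values, so the separate groups of this ratio add no support beyond the values. Tet3 nevertheless made up 95.3%, 96.5% and 94.7% of the summed TET FPKM in KO, against 99.1%, 98.9% and 99.2% in WT. Zfp57 to Trim28, its corepressor, was 19.1, 23.2 and 14.9 in KO and 39.0, 37.8 and 25.4 in WT (log2 difference −0.84, SE 0.272). KO 2 and WT 3 came nearest to each other for this last ratio.

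**Figure D3:**
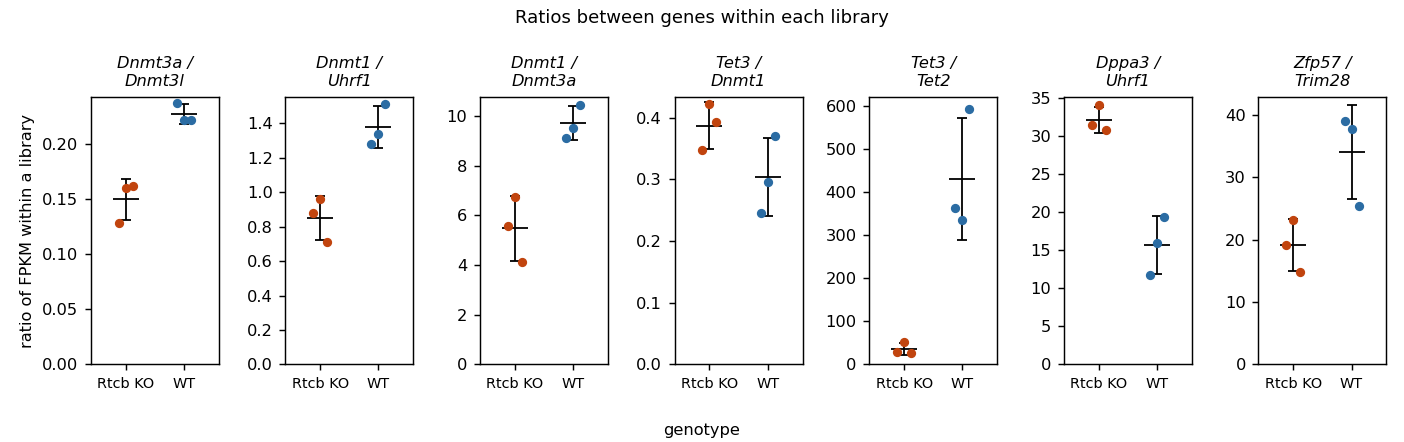
Ratio of the FPKM of a pair of genes within each library for 7 pairs, KO left and WT right, each panel with its own axis from 0; points are libraries, lines the mean and bars the SD (n = 3). KO and WT points are separate in each panel except that of Tet3 to Dnmt1.

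Genes that work with these 10 were called at shares near those of all tested genes. Over 6 lists of such genes (each gene once), 105 of 121 were tested, 9 rose and 58 fell, which is 8.57% and 55.2%, beside 9.29% and 54.0% of all tested genes. The median log2 fold change was −0.48, −0.0085 from that of all tested genes. With the factors removed 29 rose and 22 fell, where 25.7% and 18.0% of all tested genes did. Of the called genes 3 (Uhrf2, Ehmt2 and Cxxc5) had a mean under 1 FPKM in 1 genotype and passed the filter only through the other, so they had to differ and their calls add no support beyond the values. Named genes below are those with the largest called changes per list and direction whose groups did not overlap.

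Partners of maintenance and de novo methylation included Uhrf2, the paralog of Uhrf1. Uhrf2 was at 5.47, 2.89 and 4.96 FPKM in KO, against 0.725, 0.546 and 0.441 FPKM in WT (log2 fold change 1.76 as deposited and 1.72 with the factors removed), and it passed the filter only through KO. Its means were 4.44 FPKM in KO and 0.570 FPKM in WT as deposited, and 3.33 and 0.285 FPKM with the factors removed. For genes as low as Uhrf2 and Ehmt2, the added 1 FPKM makes the 2 log2 fold changes look more alike than the means are. Ehmt2, a histone H3 lysine 9 methyltransferase (1.74 FPKM in KO against 0.516 FPKM in WT, log2 fold change 0.84 as deposited and 0.86 with the factors removed) and Arid4b, which has been linked to imprint methylation in mice (11.9 FPKM in KO against 8.05 FPKM in WT, log2 fold change 0.51 as deposited and 0.98 with the factors removed) were called higher, Ehmt2 having passed the filter only through KO. Lig1, the replicative DNA ligase, whose methylated form UHRF1 binds, (11.1 FPKM in KO against 33.2 FPKM in WT, log2 fold change −1.51 as deposited and −0.93 with the factors removed) fell, as did the histone methyltransferase gene listed as Mll2 (12.2 FPKM in KO against 31.4 FPKM in WT, log2 fold change −1.27 as deposited and −0.69 with the factors removed), a former symbol of Kmt2d and also of Kmt2b, and L3mbtl3, an adaptor in DNMT1 turnover (2.62 FPKM in KO against 6.02 FPKM in WT, log2 fold change −0.95 as deposited and −0.43 with the factors removed). Kmt2b was listed separately as Wbp7 (5.47 FPKM in KO against 10.9 FPKM in WT), so the Mll2 values were taken as those of Kmt2d. Of 25 tested members of 25, 3 rose and 15 fell (12% and 60%), against 9.29% and 54.0% of all tested genes, and the median log2 fold change was −0.41, against −0.47. After removal of the factors 7 rose and 4 fell, where 25.7% and 18.0% of all tested genes did, and the median was 0.16, against 0.043.

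Among genes of imprint and methylated-allele protection, the maternal-effect genes Nlrp2 and Nlrp5 fell furthest. Nlrp2 was at 75.3, 60.4 and 61.3 FPKM in KO and 365, 255 and 207 FPKM in WT (log2 fold change −2.02, SE 0.199, limma adjusted p = 0.000185; −1.43 with the factors removed). Nlrp5 averaged 132 FPKM in KO against 527 FPKM in WT (log2 fold change −1.99 as deposited and −1.40 with the factors removed). Atrx, a chromatin remodeler, (29.8 FPKM in KO against 81.6 FPKM in WT, log2 fold change −1.45 as deposited and −0.87 with the factors removed) fell too. Cbx3, which encodes heterochromatin protein HP1 gamma, (72.3 FPKM in KO against 23.0 FPKM in WT, log2 fold change 1.57 as deposited and 2.1 with the factors removed) rose, and so did Ctcfl, a germ-line paralog of Ctcf (4.75 FPKM in KO against 2.93 FPKM in WT, log2 fold change 0.57 as deposited and 0.90 with the factors removed), whose call was lost without KO 1, KO 2, KO 3 or WT 1 (limma adjusted p up to 0.0787) and with no filter on low values. Trim28, the corepressor of ZFP57, was at 72.2, 76.1 and 96.1 FPKM in KO and 60.0, 61.9 and 102 FPKM in WT, overlapping groups, and was not called as deposited (log2 fold change 0.16, SE 0.210, limma adjusted p = 0.526). It was called higher in KO without overlap when the factors were removed (log2 fold change 0.73, limma adjusted p = 0.0239), and also with equal totals (limma adjusted p = 0.0439) and median-ratio rescaling (0.0334). Of 16 tested members of 16, 2 rose and 8 fell (12.5% and 50%), against 9.29% and 54.0% of all tested genes, and the median log2 fold change was −0.42, against −0.47. After removal of the factors 6 rose and 5 fell, where 25.7% and 18.0% of all tested genes did, and the median was 0.16, against 0.043. Nlrp2 and Nlrp5 belong to a family of similar genes, and sharing of reads among them was not tested.

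Methyl-CpG binding proteins read the mark, and this list also holds relatives of them that need not bind it. Mbd3l2, a relative of Mbd3, (75.5 FPKM in KO against 143 FPKM in WT, log2 fold change −0.92 as deposited and −0.34 with the factors removed) and Mbd1 (3.47 FPKM in KO against 6.32 FPKM in WT, log2 fold change −0.71 as deposited and −0.21 with the factors removed) fell as deposited, and neither was called with the factors removed (limma adjusted p = 0.065 and 0.35). Setdb2, a histone methyltransferase with a methyl-CpG binding domain, (38.5 FPKM in KO against 25.3 FPKM in WT, log2 fold change 0.56 as deposited and 1.10 with the factors removed) rose, a call lost without KO 1, WT 1, WT 2 or WT 3 (limma adjusted p up to 0.0651). Of 10 tested members of 12, 1 rose and 3 fell (10% and 30%), against 9.29% and 54.0% of all tested genes, and the median log2 fold change was −0.27, against −0.47. After removal of the factors 3 rose and 0 fell, where 25.7% and 18.0% of all tested genes did, and the median was 0.21, against 0.043.

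Among TET cofactors and regulators, Ddb1, the adaptor of the CRL4 ubiquitin ligase that modifies TET enzymes in oocytes, (52.4 FPKM in KO against 119.9 FPKM in WT, log2 fold change −1.18 as deposited and −0.59 with the factors removed) fell, and so did Cxxc5, a CXXC protein linked to TET2, (0.479 FPKM in KO against 2.23 FPKM in WT, log2 fold change −1.11 as deposited and −0.63 with the factors removed) and the deubiquitinase gene Usp15 (83.0 FPKM in KO against 177 FPKM in WT, log2 fold change −1.08 as deposited and −0.50 with the factors removed). Cxxc5 passed the filter only through WT. Ddb1 was at 50.9, 47.7 and 58.7 FPKM in KO and 136, 105 and 118 FPKM in WT, without overlap. The deacetylase gene Sirt1 (38.6 FPKM in KO against 10.1 FPKM in WT, log2 fold change 1.79 as deposited and 2.27 with the factors removed) rose, with KO libraries at 46.9, 26.5 and 42.3 FPKM and WT libraries at 9.07, 10.3 and 11.0 FPKM. Of 16 tested members of 18, 1 rose and 7 fell (6.25% and 43.8%), against 9.29% and 54.0% of all tested genes, and the median log2 fold change was −0.23, against −0.47. After removal of the factors 5 rose and 3 fell, where 25.7% and 18.0% of all tested genes did, and the median was 0.22, against 0.043.

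In base excision repair, the route by which oxidised or deaminated cytosines are replaced, Parp1 fell most. Parp1, a sensor of DNA strand breaks, was at 3.64, 5.0 and 3.02 FPKM in KO and 19.2, 16.1 and 16.6 FPKM in WT (log2 fold change −1.92, SE 0.177, limma adjusted p = 0.000171; −1.32 with the factors removed). The DNA glycosylase genes Neil3 (99.5 FPKM in KO against 265 FPKM in WT, log2 fold change −1.43 as deposited and −0.84 with the factors removed) and Ung (82.6 FPKM in KO against 183 FPKM in WT, log2 fold change −1.13 as deposited and −0.55 with the factors removed) fell as well. Tdg, the glycosylase that removes oxidised methylcytosine, was under 1 FPKM in every library and was not tested. Of 18 tested members of 24, 0 rose and 14 fell (0% and 77.8%), against 9.29% and 54.0% of all tested genes, and the median log2 fold change was −0.63, against −0.47. After removal of the factors 4 rose and 5 fell, where 25.7% and 18.0% of all tested genes did, and the median was −0.068, against 0.043.

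Methyl donor supply covers the folate and methionine cycles that make S-adenosylmethionine. Mthfd1, a folate cycle enzyme, (21.7 FPKM in KO against 67.7 FPKM in WT, log2 fold change −1.59 as deposited and −1.0 with the factors removed), Mtr, the methionine synthase gene, (3.32 FPKM in KO against 8.57 FPKM in WT, log2 fold change −1.14 as deposited and −0.59 with the factors removed) and Mtap, of methionine salvage, (21.9 FPKM in KO against 45.2 FPKM in WT, log2 fold change −1.02 as deposited and −0.44 with the factors removed) fell. Mat2a, the S-adenosylmethionine synthetase gene of most tissues, (103 FPKM in KO against 64.7 FPKM in WT, log2 fold change 0.65 as deposited and 1.22 with the factors removed) rose, with 119, 84.1 and 105 FPKM in KO libraries and 67.5, 71.0 and 55.6 FPKM in WT libraries. Shmt1, the cytosolic serine hydroxymethyltransferase gene, (6.40 FPKM in KO against 3.24 FPKM in WT, log2 fold change 0.78 as deposited and 1.12 with the factors removed) rose too, a call lost without KO 1, KO 3 or WT 3 (limma adjusted p up to 0.0617). Of 20 tested members of 26, 2 rose and 11 fell (10% and 55%), against 9.29% and 54.0% of all tested genes, and the median log2 fold change was −0.51, against −0.47. After removal of the factors 4 rose and 5 fell, where 25.7% and 18.0% of all tested genes did, and the median was 0.029, against 0.043.

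**Figure D4:**
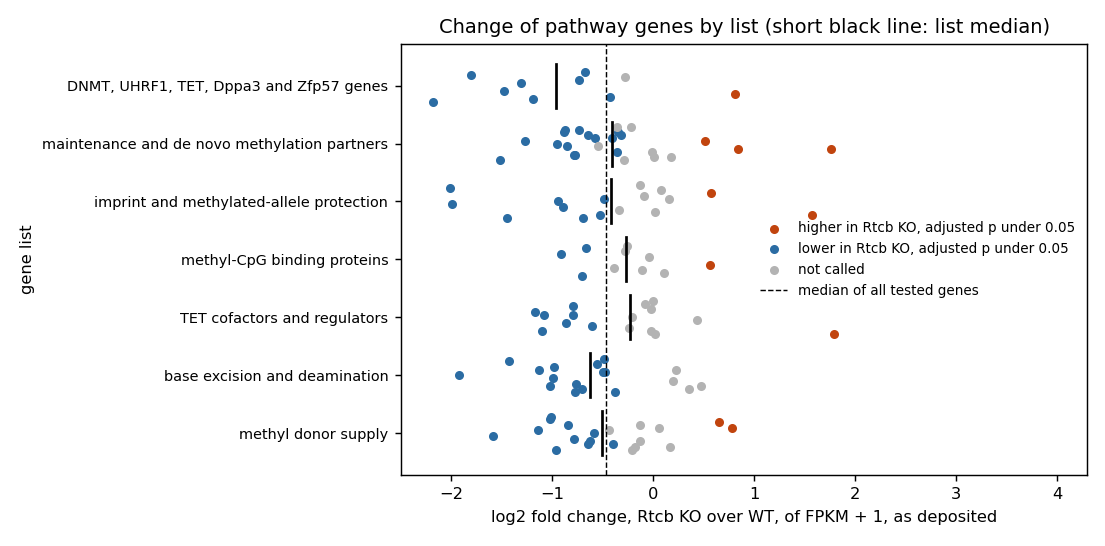
Log2 fold change, KO over WT, as deposited, of each tested gene by list, with the 10 genes on top; colours give the limma call at an adjusted p under 0.05, short lines the list medians and the dashed line the median of all tested genes, −0.47. The median of the 10 genes is −0.96, and those of the 6 other lists run from −0.63 to −0.23.

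The tested genes with profiles most like those of the 3 genes with the highest mean over all 6 libraries (Dppa3, Zfp57 and Dnmt1) were found by the root mean square difference of log2(FPKM + 1) values, centred per gene, over the 6 libraries. Nearest to Dppa3 were Hddc2 (difference 0.0222), Nfu1 (0.0256) and Naa10 (0.0322). Nearest to Zfp57 were Ercc1 (0.0240), Rhbdf1 (0.0285) and Hprt (0.0318). Nearest to Dnmt1 were D4Bwg0951e (0.0847), Lcp2 (0.114) and Car10 (0.121), at larger differences. D4Bwg0951e, for example, was at 21.6, 26.1 and 17.3 FPKM in KO and 101, 106 and 95.7 FPKM in WT.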

How the data were processed

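Polyadenylated RNA of 3 KO and 3 WT libraries, 10 oocytes each, was made into cDNA by Smart-seq2 with ERCC spike-ins and sequenced as 150 bp paired ends, per the labels' protocols. The authors used TopHat2 2.1.1 and Cufflinks 2.2.1 with build mm9, per the submitters' processing notes. The deposited values are FPKM per symbol, normalized by the authors to the spike-ins, per the labels; the steps of that normalization are not stated. The genotype factors (2 for WT, 4/3 for KO, up to powers of 10) were read from the values: division by them returns 6 significant digits for 100% of values of at least 1 FPKM (tolerance 0.01 of the last digit), against at most 76.8% for any other of 252 fractions tried.

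The 12029 genes averaging 1 FPKM or more were log2 transformed after adding 1 and fitted by lmFit and eBayes with trend (limma 3.58.1, R 4.3.3), two-sided, Benjamini-Hochberg over all tested genes, after a test on simulated data. Ratios and tables used Python 3.11.15, scipy 1.17.1, numpy 2.4.6, pandas 2.3.3 and matplotlib 3.10.9. Named were the 10 genes, Rtcb, up to 3 risen and 3 fallen genes per list with the largest changes and no overlap of groups, and the 3 nearest profiles of the 3 with the highest mean over the 6 libraries; Trim28, Tdg and single marker genes were named after their values were seen; 1 gene that the rule names is not reported here. The genes and lists were chosen with earlier results of these data known. Same-numbered libraries did not deviate together (correlations 0.141, −0.099 and 0.038). Promoter windows came from RefSeq, GRCm38.p6, for 9 of the 10 genes; gene coordinates are not given because the builds differ. Alternatives were other pseudocounts, filters and scalings, no trend, a replicate block and each library left out. Depth is unknown, so counting error could not be given.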

Additional observations from a re-analysis of the deposited data

How the results depend on the processing

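Of the 10 genes, 1 rose and 8 fell as deposited. With every library scaled to the same total, with median-ratio rescaling and with the genotype factors removed, 5 fell under each; these scalings shift the median of all tested genes from −0.47 to −0.094, −0.020 and 0.043 on the log2 scale. At a mean of at least 10 FPKM 0 rose and 7 fell, because Tet2 and Dnmt3b, like the uncalled Tet1, are then not tested. Leaving out each library gave 1 risen and 7 to 8 fallen genes. Of the pathway genes, 9 rose and 58 fell. A mean of at least 10 FPKM gave 4 risen genes. Same totals gave 17 risen and 32 fallen genes, median-ratio rescaling 24 and 27, and removed factors 29 and 22; leaving out each library gave 6 to 11 and 55 to 62. The log2 fold change of Dppa3 turned to 0.0061 with the same totals, 0.088 with median-ratio rescaling and 0.16 with removed factors, that of Naa10 to 0.014, 0.094 and 0.16, and that of Tet1 to 0.019 with removed factors. Hddc2 turned to 0.053 and 0.12, and Nfu1 to 0.075 and 0.15, with median-ratio rescaling and removed factors. Beyond the scaling itself, the cause was not tested. The 7 ratios kept their direction when any 1 library was left out. Libraries share only a replicate number across genotypes, and a replicate block changed no call of the 10 genes: Dnmt1 had a log2 fold change of −2.19 (limma adjusted p = 0.000983), and 1 gene rose and 8 fell. Of the pathway genes 9 rose and 59 fell under the block, where Kdm1a and Ahcyl1 gained a call (limma adjusted p = 0.0229 and 0.046) and Dcaf5 lost one (0.0556); over all genes 1108 rose and 6432 fell, against 1118 and 6501 without it. For numbers 1 and 3, but not 2, the KO library correlated best with the WT library of its own number. Read depth is unknown, so the precision of low genes such as Tet1 and Tet2 is known only from the spread of 3 libraries.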
